A study of Homo sapiens with 12 samples.

Results

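The comparison of the compound JK136 with its solvent DMSO was made in 3 gastric cancer cell lines on 6 arrays, the 3 JK136 arrays and the 3 DMSO arrays, of 12 arrays in all. The members were chosen by treatment and were paired by cell line. AGS, MKN1 and SNU601 are established human gastric cancer lines. Each line received DMSO alone, JK136, JK139 or Rhosin, which is a RhoA inhibitor, and each of these 12 combinations was hybridised to 1 Affymetrix array of whole transcripts. JK136 and JK139 are known here only by their code names, and the labels used here give neither dose nor time of exposure. DMSO is the shared control of all 3 compounds. The series is about signalling by RhoA in gastric cancer, and the comparison asks which transcripts differ between JK136 and its solvent. As there was 1 array for each line and treatment, the replicates of JK136 are the 3 lines, and no error given here measures the spread between cultures of 1 line. The SE of a gene comes from the residual spread of all 12 arrays, the Rhosin and JK139 arrays included, after line and treatment were fitted.

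RhoA is a small GTPase that switches between an inactive form bound to GDP and an active form bound to GTP. Guanine nucleotide exchange factors load it, GTPase activating proteins switch it off, and its effectors (kinases and formins) build actin stress fibres and contractile force. In gastric cancer the RHOA gene is a known target of recurrent mutation, particularly in diffuse tumours. The arrays measured transcripts, so the activity of the protein was not observed.

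A level is a log2 signal of the transcript cluster that stands for a gene, a difference is the JK136 level minus the DMSO level of the same line, and the mean of the 3 differences is the log2 fold change, given with its standard error (SE). Genes with a mean level of at least 4.61 over the 12 arrays were tested, which left 8930 genes. The tests used limma with line as a block and Benjamini-Hochberg adjustment over all 8930 genes, and the median 95% confidence interval of a gene's log2 fold change reached 0.24 to either side. Array medians lay between 4.14 and 4.20 over the 12 arrays. The epithelial markers EPCAM, KRT8, KRT18 and KRT19 were measured well above 4.61 in all 3 lines. Of the mesenchymal markers, VIM, FN1 and ZEB1 lay above 4.61 in MKN1 only, and the endothelial markers PECAM1 and VWF lay below it on all 6 arrays. CD68, a lysosomal protein used as a macrophage marker, was measured above 4.61 in all lines, and CDH1, CDH2, CDH5, PTPRC and CD3E had no named cluster here. The array number limits the precision of every value.

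With JK136, transcripts of interferon-induced genes lay mostly higher than with DMSO in AGS and SNU601, and those of p53-regulated genes mainly in AGS. The differences of both groups were largest in AGS, and in MKN1 their medians were −0.06 and −0.03. Without the AGS arrays the p53 median was 0.04. Transcripts of mitotic genes, of ribosomal proteins and of SREBF1, SCD and ACACA in fatty acid synthesis lay lower by small amounts. For the mitotic list the MKN1 median was 0.003. No single gene passed the test: 0 of 8930 genes (0%) had an adjusted p under 0.05 in limma, and the smallest adjusted p was 0.801. An unadjusted p under 0.05 was reached by 469 genes, where 446.5 would be reached by chance. Of these, 180 lay higher (2.02%) and 289 lower (3.24%), so that 38.4% lay higher. That split depended on the scaling of the arrays, with 240 higher and 215 lower after quantile normalization (52.7% higher) and 214 and 229 after median centring (48.3% higher). In cell cultures measured in bulk, fewer cells of a kind and less RNA per cell cannot be told apart. All differences below are therefore measured values that did not pass the test, unless a call is named.

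The 3 lines differed from DMSO by unequal amounts and in largely different genes. The SD of the differences over the 8930 genes was 0.27 for AGS, 0.22 for MKN1 and 0.20 for SNU601. In AGS, 161 genes (1.8%) lay at least 1.5-fold higher and 209 (2.34%) at least 1.5-fold lower. The same counts were 73 (0.817%) and 85 (0.952%) in MKN1, and 63 (0.705%) and 64 (0.717%) in SNU601. Across the 8930 genes, the differences of AGS and MKN1 correlated with Pearson's r = −0.03, those of AGS and SNU601 with r = 0.10, and those of MKN1 and SNU601 with r = 0.04, where the points are genes measured on the same arrays and not replicates. The differences had 1 sign in all 3 lines in 951 genes that lay higher (10.6%) and 1421 that lay lower (15.9%), together 26.6%. A mean of at least 1.5-fold with 1 sign was seen in 9 genes on the higher side (0.101%) and 7 on the lower (0.0784%). The gene MIR4472-1 lay at least 1.5-fold higher in each of the 3 lines (0.0112%), and 0 genes lay at least 1.5-fold lower in each (0%).

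The 15 genes with the highest means among those with 1 sign had different roles. SAMD9 (transcript cluster 17059771, chromosome 7), an interferon-induced antiviral factor that restrains translation, rested on AGS. Its level was 6.44 with DMSO and 8.05 with JK136 in AGS, 8.41 and 8.44 in MKN1, and 7.52 and 8.03 in SNU601. The level in AGS came up to that of SNU601, while MKN1 hardly differed, and the log2 fold change was 0.71 ± 0.32 (SE, n = 3 lines, limma adjusted p = 0.902). GDF15 (transcript cluster 16859795, chromosome 19), a stress-induced secreted cytokine of the TGF-beta family, had its largest difference in another line. Its level was 5.03 with DMSO and 6.43 with JK136 in MKN1, 10.07 and 10.28 in AGS, and 7.69 and 8.16 in SNU601. MKN1, the line with the lowest level, differed most, and the log2 fold change was 0.70 ± 0.17 (SE, limma adjusted p = 0.801). FBXO32 (transcript cluster 17080788, chromosome 8), the substrate receptor of a ubiquitin ligase, went from 3.36 to 4.86 in SNU601, from 6.40 to 7.24 in MKN1 and from 4.92 to 5.02 in AGS. It had the highest mean of all genes with 1 sign, 0.81 ± 0.20 (SE, limma adjusted p = 0.801), and AGS hardly took part.

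AADAC (transcript cluster 16947045, chromosome 3), a lipid and drug esterase of the endoplasmic reticulum of gut and liver, differed more evenly. Its level was 2.07 with DMSO and 2.78 with JK136 in AGS, 5.57 and 5.95 in MKN1, and 7.005 and 7.93 in SNU601. The AGS levels lay far below 4.61, and the log2 fold change was 0.67 ± 0.15 (SE, limma adjusted p = 0.801). STOM, the membrane scaffold protein stomatin, differed by 0.99 in AGS and 0.84 in SNU601 but by 0.13 in MKN1, where its level was by far the highest (8.41 with DMSO). The STOM levels were 3.32 and 4.30 in AGS, below 4.61, and 4.56 and 5.40 in SNU601. DKK1, a secreted inhibitor of Wnt signalling, differed by 1.06, 0.12 and 0.64 in AGS, MKN1 and SNU601. CPA4, a secreted carboxypeptidase, differed by 0.84, 0.25 and 0.62, IL6R, the interleukin-6 receptor, by 0.75, 0.28 and 0.59, and FLG, the epidermal protein filaggrin, by 0.98, 0.58 and 0.31. In these 5 genes other than FLG, MKN1 had the smallest difference of the 3 lines. DDX60L, a helicase-like interferon-induced gene, differed by 1.04, 0.19 and 0.38, and the long non-coding RNA LINC00707 by 1.15, 0.46 and 0.44. LINC00707 had 3.21 and 4.36 in AGS, CPA4 had 3.85 and 4.47 in SNU601, and FLG had 4.07 and 4.38 in SNU601, all below 4.61. USP17L12 and USP17L9P, which had identical values on every array and belong to a family of near-identical copies on chromosome 4, count as 1 measurement of 0.57 ± 0.15 (SE, limma adjusted p = 0.801) that cannot be assigned to either gene. ZNF845, a zinc finger gene, completed the 15 highest with 0.55.

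Among the 15 lowest means, protein-coding genes of different roles stood beside 5 microRNA genes. TSEN15 (transcript cluster 16674953, chromosome 1), a subunit of the endonuclease that splices transfer RNA, had a level of 8.37 with DMSO and 7.38 with JK136 in AGS, 6.17 and 5.88 in MKN1, and 7.17 and 6.61 in SNU601. It lay lower in all 3 lines by −0.62 ± 0.13 (SE, limma adjusted p = 0.801). EGR1 (transcript cluster 16989736, chromosome 5), an immediate-early transcription factor, had 8.05 and 7.06 in AGS, 9.57 and 9.0002 in MKN1, and 7.84 and 7.65 in SNU601. Its mean of −0.58 came with an SE of 0.33 (limma adjusted p = 0.906). EDAR, a receptor of the TNF receptor family that acts in skin appendages, differed by −0.76, −0.37 and −0.76 in AGS, MKN1 and SNU601. ZNF449, a zinc finger gene of the X chromosome, differed by −0.81, −0.54 and −0.43, and MT1E, a metal-binding metallothionein whose transcripts resemble those of its relatives, by −0.26, −0.52 and −0.83. KIF21B, a kinesin motor, and UNC93A, a membrane protein, rested on AGS, with −1.40 and −1.33 there and between −0.03 and −0.32 in the other lines. DDX11L9, a member of a multicopy gene family near chromosome ends, had a mean of −0.56, and its signal may be shared with other copies.

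**Figure D1:**
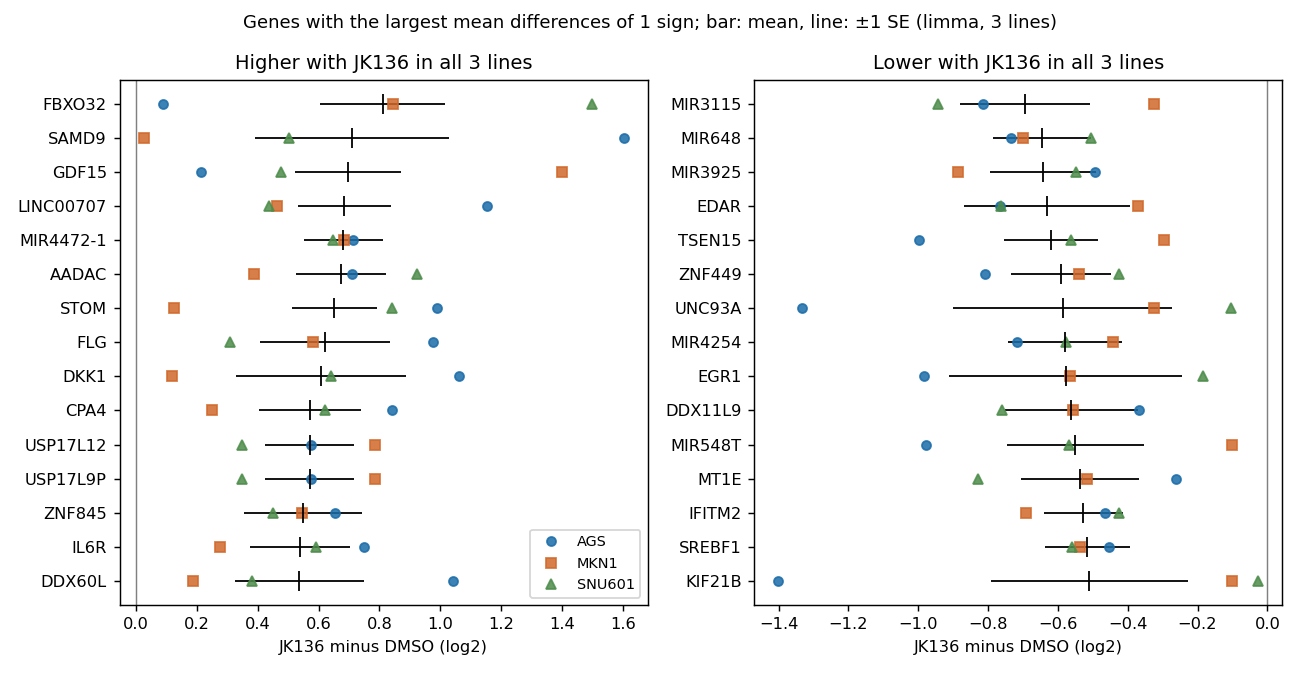
JK136 minus DMSO difference (x axis, log2) of 30 genes, the 15 highest and 15 lowest means among genes with 1 sign in all 3 lines. Points are the 3 cell lines, the vertical tick is the mean and the horizontal line is ±1 SE from limma; the 3 points of MIR4472-1 and of SREBF1 lie close together, while those of FBXO32, SAMD9, GDF15 and KIF21B are spread over more than 1 unit.

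**Figure D2:**
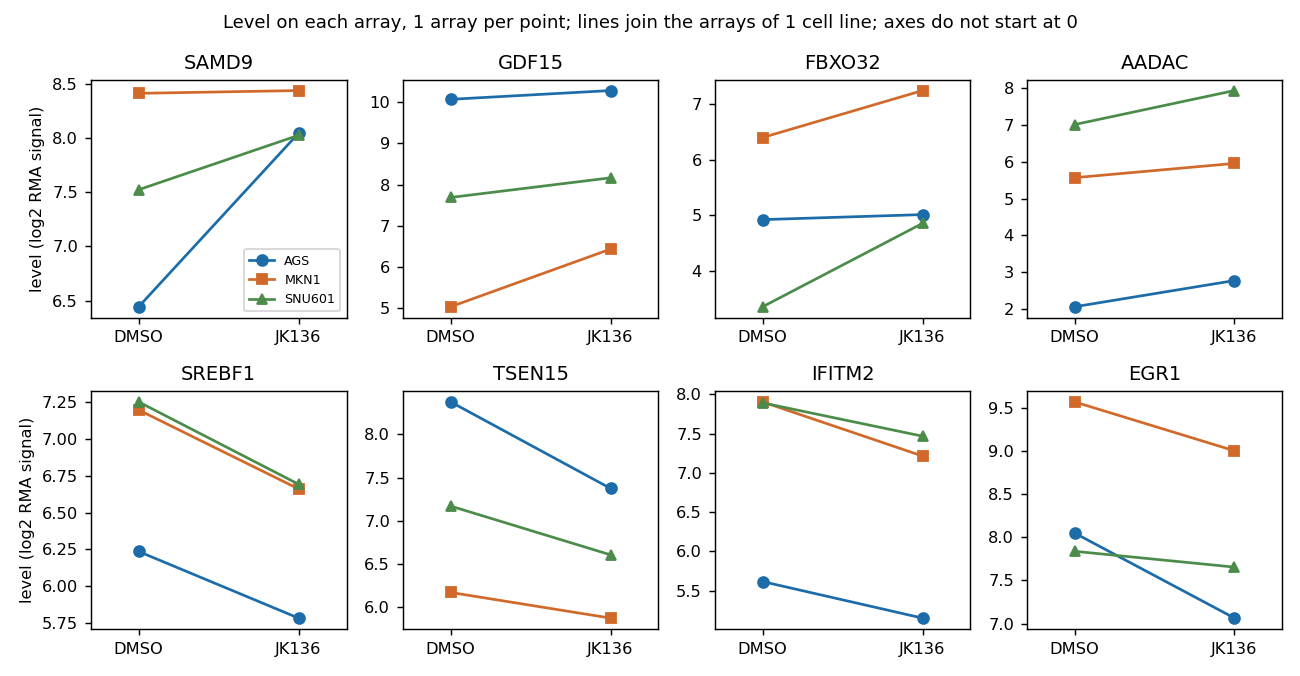
Level (y axis, log2 signal, axes do not start at 0) of 8 genes on the 6 arrays, with 1 point per array and a line joining DMSO to JK136 within each cell line. SAMD9 climbs mainly in AGS and GDF15 mainly in MKN1, whereas SREBF1 and IFITM2 descend by similar amounts in all 3 lines.

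A ranking by the smallest of the 3 differences picked the genes in which no line stayed near 0. SREBF1 (transcript cluster 16841941, chromosome 17), which codes for the transcription factor SREBP-1 of fatty acid synthesis, had levels of 6.24 with DMSO and 5.78 with JK136 in AGS, 7.20 and 6.66 in MKN1, and 7.25 and 6.69 in SNU601. The 3 differences were −0.45, −0.54 and −0.56, with a mean of −0.52 ± 0.12 (SE, limma adjusted p = 0.801). IFITM2 (transcript cluster 16720077, chromosome 11), an interferon-induced membrane protein that blocks the entry of viruses, had 5.61 and 5.15 in AGS, 7.91 and 7.21 in MKN1, and 7.89 and 7.47 in SNU601, a mean of −0.53 ± 0.11 (SE, limma adjusted p = 0.801). Its paralog IFITM3 is nearly identical in sequence, so the signal of the pair may be mixed. FAXDC2, a member of the fatty acid hydroxylase family, differed by −0.42, −0.57 and −0.44 in AGS, MKN1 and SNU601. SECTM1, a secreted and transmembrane immune protein, differed by −0.42, −0.47 and −0.48. RBIS, a factor of ribosome assembly, differed by −0.39, −0.43 and −0.44. In these genes the order of the 3 lines was not the same.

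On the higher side of that ranking, GLUL, which makes glutamine from glutamate and ammonia, had levels of 5.33 and 5.79 in AGS, 5.19 and 5.75 in MKN1, and 5.90 and 6.29 in SNU601, a mean of 0.47 ± 0.15 (SE, limma adjusted p = 0.902). CD68 differed by 0.44, 0.40 and 0.35 in AGS, MKN1 and SNU601. GDF7, a secreted growth factor of the BMP family, differed by 0.42, 0.41 and 0.43, at levels close to 4.61. MTSS1, an actin- and membrane-binding scaffold, differed by 0.43, 0.65 and 0.46, CRYBG1, a protein with crystallin-like domains, by 0.45, 0.39 and 0.41, and ZNF880, a zinc finger gene, by 0.42, 0.49 and 0.43. MTSS1 had 3.80 and 4.23 in AGS and 3.75 and 4.21 in SNU601, and CRYBG1 had 3.43 and 3.88 in AGS, all below 4.61. LINC00707, ZNF845, AADAC and MIR4472-1 were also in this group. In AGS, LINC00707, ZNF845 and AADAC lay below 4.61 with DMSO and with JK136. The difference with JK139, measured against the same DMSO arrays, had a mean of 0.57 for GDF7 and 0.35 for ZNF845, and that with Rhosin a mean of 0.54 for CRYBG1.

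The rankings by mean and by smallest difference took 15 and 10 genes on each side, some of them the same. MicroRNA genes made up 7 of the genes named by either ranking, 1 on the higher side and 6 on the lower. The share of microRNA genes among the 8930 tested genes was not counted, so these numbers show no excess. A microRNA is a short RNA that pairs with messenger RNAs mainly through its seed, bases 2 to 8 from its 5′ end. The array probes the transcript of the gene and does not show whether a mature microRNA is made. The mature sequences of the 6 lower genes are shown because they form the largest class of non-coding genes on that side, and the seeds, in capitals, tell whether they could address the same messages. The sequences are from RefSeq (GRCh38.p14), which matched all 6.
miR-3115: aUAUGGGUuuacuaguuggu
miR-648: aAGUGUGCagggcacuggu
miR-3925-5p: aAGAGAACugaaaguggagccu
miR-3925-3p: aCUCCAGUuuuaguucucuug
miR-4254: gCCUGGAGcuacuccaccaucuc
miR-548t-5p: cAAAAGUGaucgugguuuuug
miR-32-5p: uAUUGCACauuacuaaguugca
miR-32-3p: cAAUUUAGugugugugauauuu
The 8 mature sequences carried 8 different seeds, so each seed occurred 1 time.

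Of these genes, MIR648 (transcript cluster 16932077, chromosome 22) had levels of 5.14 with DMSO and 4.40 with JK136 in AGS, 4.73 and 4.03 in MKN1, and 5.15 and 4.64 in SNU601, a mean of −0.65 ± 0.14 (SE, limma adjusted p = 0.801). MIR32, which lies on chromosome 9, had 5.89 and 5.41 in AGS, 5.67 and 5.09 in MKN1, and 5.28 and 4.84 in SNU601, a mean of −0.50 ± 0.10 (SE, limma adjusted p = 0.801). MIR32 lay above 4.61 on all 6 arrays, whereas MIR648 with JK136 lay close to that level or under it. Over the 12 arrays the mean levels of MIR648, MIR3115, MIR3925, MIR4254 and MIR548T were 4.79, 4.83, 4.83, 4.84 and 4.88, little above 4.61. MIR3115 differed by −0.81, −0.32 and −0.94 in AGS, MKN1 and SNU601, MIR3925 by −0.49, −0.89 and −0.55, MIR4254 by −0.72, −0.44 and −0.58, and MIR548T by −0.98, −0.10 and −0.57. MIR4472-1 (transcript cluster 17073166, chromosome 8) had levels of 4.57 and 5.28 in AGS, 4.49 and 5.17 in MKN1, and 4.23 and 4.88 in SNU601. Its differences of 0.71, 0.68 and 0.65 had the smallest spread among the 15 genes with the highest means, with a log2 fold change of 0.68 ± 0.13 (SE, limma adjusted p = 0.801), but its DMSO levels lay below 4.61 in all 3 lines. With Rhosin, against the same DMSO arrays, MIR4472-1 had a mean difference of 0.51, MIR3115 of −0.61 and MIR3925 of −0.64.

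The interferon system defends cells against viruses. Sensors such as RIGI detect viral RNA, JAK kinases and IRF and STAT factors carry the signal, and many induced effector genes then limit viral entry, translation and replication. Of 37 tested genes of this system, 30 had a mean above 0 and 7 below it, against 44% and 56% of all genes tested, and 0 passed the test. The median log2 fold change was 0.20, beside −0.02 for all genes. Of the 37, 10 lay higher in all 3 lines and 2 lay lower in all 3, against 10.6% and 15.9% of all genes. The median difference was 0.50 in AGS and 0.19 in SNU601 but −0.06 in MKN1, where 16 of 37 lay higher, against 43.7%, 51.4% and 44.2% of all genes that lay higher in AGS, MKN1 and SNU601. Without the AGS arrays the median of the 37 genes was 0.09, with 25 above 0, and without the MKN1 arrays it was 0.37.

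Among 9 sensors and signalling genes, 6 had a mean above 0 with a median of 0.11. RIGI, the cytoplasmic sensor of viral RNA, had levels of 8.03 with DMSO and 9.17 with JK136 in AGS, 6.55 and 6.52 in MKN1, and 6.96 and 7.30 in SNU601, a mean of 0.48 ± 0.21 (SE, limma adjusted p = 0.902). The 28 effectors had a median of 0.26, with 24 above 0. XAF1, a pro-apoptotic interferon-induced protein, lay higher in all 3 lines, with 5.91 and 6.51 in AGS, 6.27 and 6.50 in MKN1, and 6.80 and 7.52 in SNU601. SP110, a nuclear body protein, differed by 0.95, 0.13 and 0.22 in AGS, MKN1 and SNU601. SAMD9L, the neighbour and paralog of SAMD9, differed by 0.93, −0.01 and 0.72, and MX2, a GTPase that blocks nuclear import of viruses, by 1.15, −0.34 and 0.76. IFIT3, which binds foreign RNA together with IFIT1, differed by 1.08, 0.44 and −0.29. The pattern of a large difference in AGS and one near or below 0 in MKN1 therefore recurred in SAMD9L, MX2 and RIGI but not in XAF1 or IFIT3.

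Many promoters of interferon-induced genes hold an interferon-stimulated response element, to which the STAT and IRF factors bind. The searched motif was GAAA, then any 2 bases, then GAAA, on both strands, in the window from 250 bases before to 50 bases after the start of each gene in RefSeq (GRCh38.p14), and a promoter counted 1 time however many matches it held. It was found in 16 of 29 promoters of the interferon list (55.2%), in 996 of 27305 promoters of the whole table (3.65%) and in 170 of 6940 promoters of tested genes (2.45%). Stretches of up to 60 bases around 1 match, in capitals, are shown for a gene that lay higher in all lines with the largest mean, for another such gene, for a pair of genes whose differences pointed opposite ways in AGS and MKN1, and for a gene that lay lower in all lines. Each is written 5′ to 3′ in the direction of its gene, and a match on the opposite strand reads as the reverse complement. The stretches of IFIT1, ISG15 and IFITM3 each hold a further match, left in lower case or overlapping the capitals.
SAMD9, chr7:93118081-93118140, minus strand: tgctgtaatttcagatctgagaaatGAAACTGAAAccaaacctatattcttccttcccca
IFI44, chr1:78649746-78649788, plus strand: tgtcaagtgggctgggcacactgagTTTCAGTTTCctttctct
IFIT1, chr10:89392482-89392541, plus strand: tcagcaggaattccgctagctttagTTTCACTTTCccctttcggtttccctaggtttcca
ISG15, chr1:1013365-1013424, plus strand: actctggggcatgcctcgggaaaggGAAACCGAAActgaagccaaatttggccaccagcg
IFITM3, chr11:320861-320920, minus strand: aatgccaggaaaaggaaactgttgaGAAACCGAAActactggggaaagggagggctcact
IFIT1, which binds viral RNA, differed by 1.13 for AGS, −0.81 for MKN1 and 0.19 for SNU601, and ISG15, a ubiquitin-like modifier, by 0.86, −0.23 and 0.29. IFI44, a cytoplasmic interferon-induced protein, differed by 0.94, 0.02 and 0.15, and IFITM3 by −0.14, −0.18 and −0.10. These 4 genes were chosen for their matches after their values were seen. Of the 8 list promoters whose genes lay higher in all 3 lines, 4 held the motif. The match is a description of letters, and promoters with it stood beside differences of either sign.

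The transcription factor p53 switches on genes of growth arrest, repair, metabolism and cell death after damage. Of 15 tested p53 targets, 14 had a mean above 0, 5 lay higher in all 3 lines and 0 lower in all 3, with a median of 0.28 beside −0.02 for all genes, and 0 passed the test. Of all genes tested, 44% had a mean above 0, 10.6% lay higher in all 3 lines and 15.9% lower. All 15 lay higher in AGS, where the median was 0.60, against 6 of 15 in MKN1 (median −0.03) and 9 of 15 in SNU601 (median 0.06). The shares of all genes that lay higher were 43.7% in AGS, 51.4% in MKN1 and 44.2% in SNU601. Without the AGS arrays, 8 of 15 had a mean above 0 and the median was 0.04. In AGS, SESN1, a sestrin that restrains growth signalling, had 6.48 with DMSO and 7.41 with JK136, TRIAP1, a mitochondrial survival factor, 6.36 and 7.25, and TIGAR, a phosphatase that diverts glucose from glycolysis, 6.52 and 7.23. In MKN1 the levels of the same genes were 5.61 and 5.60, 6.11 and 6.23, and 5.90 and 5.87, and in SNU601 they were 5.65 and 5.56, 6.47 and 6.52, and 5.73 and 6.11. AGS was thus the line in which SESN1, TRIAP1 and TIGAR differed most. TP53I3, an oxidoreductase, differed more evenly by 0.49, 0.32 and 0.20 in AGS, MKN1 and SNU601, with a mean of 0.34 ± 0.13 (SE, limma adjusted p = 0.902). TP53INP1, a stress-induced autophagy factor, differed by 1.19 for AGS, −0.18 for MKN1 and 0.08 for SNU601, and PLK2, a polo-like kinase, by 0.42, −0.07 and 0.49. BAX, the pore-forming killer protein, differed by 0.64, −0.07 and 0.03. The list also holds GDF15 and FBXO32, which answer to other stress pathways as well, and their largest differences lay in MKN1 and SNU601.

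**Figure D3:**
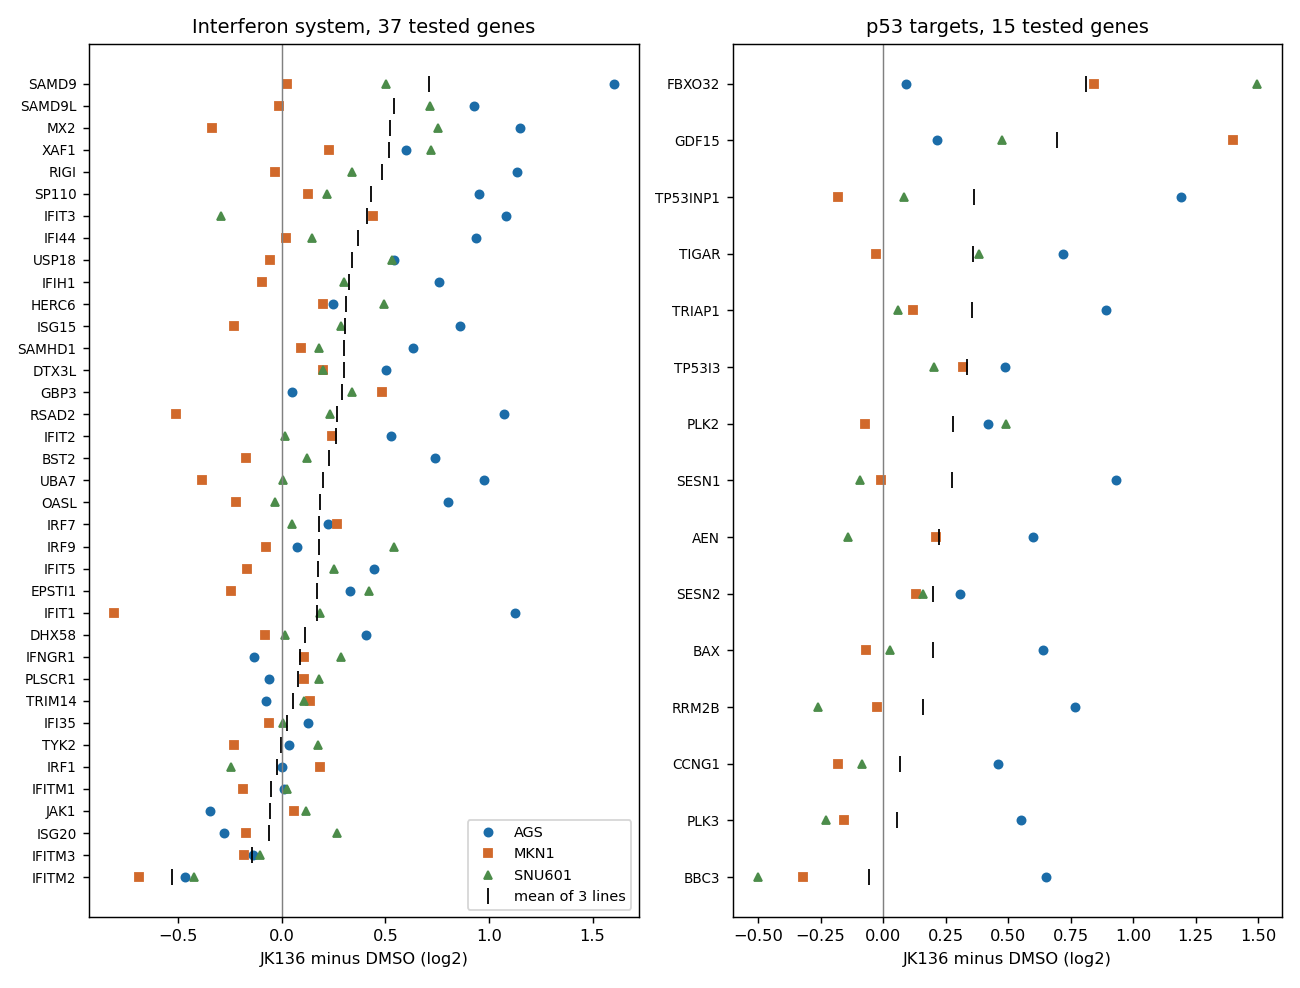
JK136 minus DMSO difference (x axis, log2) in each cell line for the 37 tested genes of the interferon system (left) and the 15 tested p53 targets (right), with a tick at the mean of the 3 lines. The AGS points lie farthest to the right in most genes of both panels, and the MKN1 points of the interferon genes scatter around 0 with a median of −0.06.

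The AGS JK136 array had a slightly narrower distribution of levels than the AGS DMSO array, with SDs over all clusters of 1.99 and 2.03. The other lines had 2.02 and 2.02 (MKN1) and 2.02 and 2.03 (SNU601) for JK136 and DMSO. The AGS medians were recomputed with other scalings, and the part of the narrower array in single genes was not tested. After quantile normalization the AGS median was 0.57 for the interferon list and 0.66 for the p53 list. After subtraction of the trend of the difference with level within each line, an alternative chosen after seeing the data, it was 0.55 and 0.64.

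Heat shock proteins fold and refold other proteins. Of 14 tested genes, 13 had a mean above 0 and 5 lay higher in all 3 lines, with a median of 0.11, and 0 passed the test. Of all genes tested, 44% had a mean above 0 and 10.6% lay higher in all 3 lines. In SNU601, 6 of 14 lay higher, against 44.2% of all genes. The median difference was 0.24 for AGS, 0.11 for MKN1 and −0.01 for SNU601, the last of which became 0.01 after median centring. HSPH1, a nucleotide exchange factor for the chaperone HSP70, had 8.87 with DMSO and 9.27 with JK136 in AGS, 9.64 and 9.83 in MKN1, and 9.68 and 9.70 in SNU601, a mean of 0.20 ± 0.14 (SE, limma adjusted p = 0.936). HSPB8, a small heat shock protein, differed by 0.76, 0.07 and 0.12 in AGS, MKN1 and SNU601. HSPA4L, a relative of HSPH1, differed by 0.60, 0.09 and 0.63, although its SNU601 levels of 2.44 and 3.07 lay far below 4.61. HSPA1A and HSPA1B, near-identical copies of inducible HSP70 whose signals cannot be told apart, had means of 0.18 and 0.14 and were counted as separate members.

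Mitotic genes lay lower in 32 of 36 tested members, 10 of them in all 3 lines and 0 higher in all 3, with a median of −0.09 beside −0.02 for all genes. Of all genes tested, 56% had a mean below 0 and 15.9% lay lower in all 3 lines. The count of mitotic genes lower in all 3 lines was 7 after quantile normalization and 5 after median centring. Over all 8930 genes the same counts were 1144 and 1205, so after median centring the mitotic count was close to the share of all genes. None passed the test, and the differences were small. The median difference was −0.14 for AGS, 0.003 for MKN1 and −0.19 for SNU601. AURKB, a kinase of chromosome segregation and cytokinesis, had 8.08 with DMSO and 7.69 with JK136 in AGS, 8.12 and 7.95 in MKN1, and 8.69 and 8.47 in SNU601, a mean of −0.26 ± 0.09 (SE, limma adjusted p = 0.902). PLK4, the kinase that starts centriole duplication, differed by −0.64 in AGS and −0.35 in SNU601 and by 0.00 in MKN1. SGO2, which protects cohesion at centromeres, differed by −0.24, −0.08 and −0.38 in AGS, MKN1 and SNU601, and NUSAP1, a spindle protein, by −0.06, −0.09 and −0.45. CENPK and CENPA, both centromere proteins, had means of −0.25 and −0.20. DNA replication genes lay lower in 18 of 25, with a median of −0.06, and without the SNU601 arrays the median was 0.02 with 15 of 25 above 0. CDC45, a part of the replicative helicase, had a mean of −0.22 ± 0.11 (SE, limma adjusted p = 0.902). The cell cycle homology region (TTTGAA or TTCGAA on either strand), an element of promoters active in mitosis, was found in 21 of 32 mitotic promoters (65.6%) and 2 of 21 replication promoters (9.52%). It was found in 16.6% of all promoters of the table and 11.2% of those of tested genes. Among mitotic genes that lay lower in all 3 lines, 6 of 10 promoters held it (60%).

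Fatty acid and cholesterol synthesis lie under the SREBP factors, SREBP-1 mainly for fatty acids and SREBP-2 mainly for cholesterol. Of 16 tested genes of fatty acid synthesis, 13 had a mean below 0, 5 lay lower in all 3 lines and 1 higher in all 3, with a median of −0.09. Of all genes tested, 56% had a mean below 0, 15.9% lay lower in all 3 lines and 10.6% higher. In AGS, MKN1 and SNU601, 6, 4 and 8 of the 16 lay higher, against 43.7%, 51.4% and 44.2% of all genes. SCD, the desaturase that makes monounsaturated fatty acids, had 10.18 with DMSO and 9.87 with JK136 in AGS, 10.40 and 9.72 in MKN1, and 10.34 and 10.18 in SNU601, a mean of −0.38 ± 0.11 (SE, limma adjusted p = 0.902). ACACA, the acetyl-CoA carboxylase that commits carbon to fatty acids, had 7.77 and 7.52 in AGS, 7.74 and 7.53 in MKN1, and 8.10 and 7.82 in SNU601, a mean of −0.24 ± 0.08 (SE, limma adjusted p = 0.902). Together with SREBF1, these 3 genes lay lower in every line. FADS1, a desaturase of polyunsaturated fatty acids, went the other way in every line, by 0.48, 0.38 and 0.26 in AGS, MKN1 and SNU601. ELOVL5, which elongates polyunsaturated fatty acids, differed by −0.62 in MKN1, the line with the lowest median of this list (−0.23), and by −0.01 and 0.09 in AGS and SNU601. The medians of AGS and SNU601, −0.02 and −0.01, turned to values above 0 after quantile normalization.

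Of 17 cholesterol genes, 13 had a mean above 0, against 44% of all genes, with a median of 0.10, and the lines differed. The median was 0.17 in AGS and 0.30 in SNU601 but −0.10 in MKN1, and 0 genes passed the test. HMGCS1, an early enzyme of the pathway, had 5.67 with DMSO and 6.01 with JK136 in AGS, 6.77 and 6.52 in MKN1, and 7.19 and 7.92 in SNU601. ACAT2, which joins acetyl-CoA at the start of the pathway, differed by 0.61, −0.05 and 0.30, and STARD4, a cholesterol carrier, by 0.60, −0.39 and 0.36. SREBF2 itself had a mean of −0.24, and MVK, mevalonate kinase, lay lower in all 3 lines with a mean of −0.23. Without the AGS arrays the median of the 17 genes was 0.03 and without the SNU601 arrays 0.02.

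RHOA, RHOB and RHOC were named whatever their values, and none of the 3 passed the test. RHOA (transcript cluster 16954055, chromosome 3) had levels of 10.10 with DMSO and 9.99 with JK136 in AGS, 10.02 and 9.88 in MKN1, and 10.07 and 9.99 in SNU601. It lay lower in all 3 lines by −0.11 ± 0.08 (SE, limma adjusted p = 0.936). RHOB, a GTPase of endosomes whose transcript is short-lived, differed by −0.70 in AGS and by 0.15 and 0.22 in MKN1 and SNU601. RHOC, the third close relative, differed by −0.21, −0.15 and 0.27 in AGS, MKN1 and SNU601, and without the AGS arrays the means of RHOB and RHOC lay above 0, that of RHOC also without the MKN1 arrays. RHOG, which acts upstream of Rac, differed by 0.58 in MKN1 and by 0.08 and −0.01 in AGS and SNU601.

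ARHGEF10, a guanine nucleotide exchange factor, had a mean of −0.36 ± 0.11 (SE, limma adjusted p = 0.902), with 4.21 and 3.98 in AGS, 6.15 and 5.78 in MKN1, and 4.29 and 3.82 in SNU601, so that it was measured above 4.61 in MKN1 alone. TIAM1, an exchange factor of Rac, differed by −0.65 in SNU601 and by −0.07 and 0.09 in AGS and MKN1. ARHGAP18, a GTPase activating protein for RhoA, had 7.19 and 8.31 in AGS, a difference of 1.12, against −0.12 in MKN1 and −0.06 in SNU601. LIMK1, a kinase that protects actin filaments through cofilin, differed by −0.19, −0.37 and −0.09 in AGS, MKN1 and SNU601, and DIAPH2, a formin, by −0.06, −0.20 and −0.81. Serum response factor targets, which answer to actin dynamics, had a mean below 0 in 9 of 15, with a median of −0.03, beside 56% and −0.02 for all genes, and 9 of 15 lay higher in AGS. TPM1, a tropomyosin, had a mean of −0.30 ± 0.14 and TAGLN, an actin-binding protein of smooth muscle, −0.30 ± 0.15 (SE, limma adjusted p = 0.902 for both).

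Ribosomal protein genes lay lower in 15 of 15 tested members, 7 of them in all 3 lines, with a median of −0.09, and all 15 stayed below 0 after quantile normalization and after median centring. Of all genes tested, 56% had a mean below 0 and 15.9% lay lower in all 3 lines. Of 6 tested housekeeping genes, 5 had a mean below 0, with a median of −0.07. The housekeeping medians were 0.02 in AGS and MKN1 and −0.16 in SNU601. The median difference was −0.23 for AGS, −0.02 for MKN1 and −0.11 for SNU601. RPL10 had 10.13 with DMSO and 9.85 with JK136 in AGS, 10.09 and 9.98 in MKN1, and 10.56 and 10.44 in SNU601, a mean of −0.17 ± 0.10 (SE, limma adjusted p = 0.905). Transcripts of ribosomal proteins resemble their many processed pseudogenes, and 15 of the 28 genes written in the list had a named cluster. Leaving out AGS left 14 of 15 below 0 with a median of −0.06.

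Immediate-early genes are switched on within minutes of a stimulus, and their differences pointed in different directions. Of 24 tested genes, 16 had a mean above 0, 3 lay higher and 2 lower in all 3 lines, with a median of 0.04, and the median was −0.10 in AGS but 0.20 in MKN1 and 0.06 in SNU601. Of all genes tested, 44% had a mean above 0, 10.6% lay higher in all 3 lines and 15.9% lower. EGR1 and DUSP2, a phosphatase of MAP kinases, lay lower in every line, DUSP2 by −0.35, −0.21 and −0.41 in AGS, MKN1 and SNU601. FOS, an AP-1 subunit, differed by −0.52, −0.61 and 0.05, whereas FOSL1, another AP-1 subunit, differed by 0.56, 0.53 and 0.03. IER2 differed by −0.96 in AGS, and MYC, a growth-promoting transcription factor, by 0.70 in MKN1. FOS and FOSL1 thus lay on opposite sides of 0 in AGS and MKN1.

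The genes with the largest differences within 1 line are values of 1 pair of arrays, with no test. In AGS, PSG6 (transcript cluster 16872884), a pregnancy-specific glycoprotein of a family with very similar members, had 4.52 with DMSO and 6.97 with JK136, a difference of 2.45. LINC03033 (transcript cluster 16785048), a long non-coding RNA, had 7.79 and 5.11, a difference of −2.68. In the other lines PSG6 and LINC03033 stayed near or below 4.61 on all 4 arrays. AXL, a receptor tyrosine kinase, differed by 1.44 in AGS, the long non-coding RNA UCA1 by 1.40 and TMEM140 by 1.21. Genes of amino acid stress under the factor ATF4 were among the lowest in AGS, where DDIT4, an inhibitor of mTOR signalling, differed by −1.55, CTH, which makes cysteine, by −1.34, TRIB3 by −1.22 and ASNS, asparagine synthetase, by −1.09. The 15 tested genes of that list had a median of −0.45 for AGS, 0.13 for MKN1 and −0.04 for SNU601. CEACAM5, an adhesion glycoprotein of gut epithelium, differed by −1.32 in AGS and by 0.42 in SNU601.

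In MKN1, FHOD3 (transcript cluster 16852025, chromosome 18), a formin that assembles actin, had 5.81 with DMSO and 7.29 with JK136. ZNF544 had the largest difference of this line, 1.83, but between levels of 1.80 and 3.63 that lie below 4.61. STEAP4, a metal reductase, had 8.19 and 6.93, a difference of −1.27, and LLGL2, a cell polarity protein, 6.25 and 5.21. TESC, a calcium-binding protein, differed by −1.14 and ADCY1, an adenylate cyclase, by 0.97. In AGS and SNU601, FHOD3, LLGL2, TESC and ADCY1 differed by between −0.37 and 0.24. In SNU601, MMP1 (transcript cluster 16743721, chromosome 11), interstitial collagenase, had 5.99 and 7.52, a difference of 1.53, and it differed by 0.83 in AGS and −0.20 in MKN1. TFF2, a trefoil peptide of gastric mucus, had 5.83 and 7.02 in SNU601, and KLK11, a kallikrein protease, 6.02 and 6.96. MIR16-2, a microRNA gene, had 5.63 and 4.37, a difference of −1.26, and KLF7, a zinc finger factor, differed by −1.11 and HOXB4, a homeobox factor, by −1.01.

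**Figure D4:**
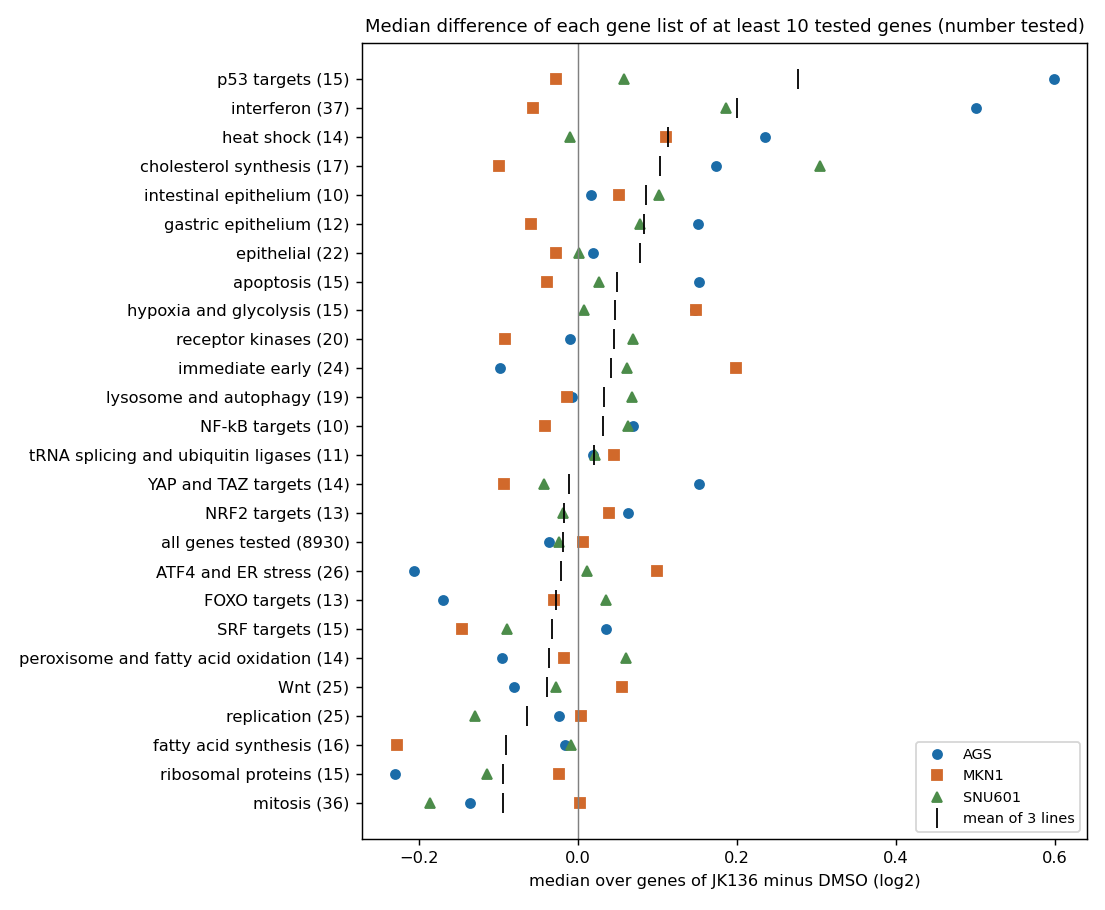
Median over the tested genes of each list of the JK136 minus DMSO difference (x axis, log2) in each cell line, with a tick at the median of the 3-line means and the number of tested genes in parentheses, for the lists reported here with at least 10 tested genes and for all 8930 genes. The p53 and interferon medians of AGS, 0.60 and 0.50, are the highest of the plotted points, and the medians of the 3 lines often lie on different sides of 0.

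JK136 was also set against the other compounds in 2 comparisons, in which the DMSO arrays do not enter the difference. The doses are not stated for any compound, so it is not known whether they match. For JK136 minus Rhosin, 0 of 8930 genes (0%) passed the test, 812 had an unadjusted p under 0.05 (4.03% higher and 5.06% lower with JK136), and the smallest adjusted p was 0.0999. For JK136 minus JK139, 0 passed (0%), 494 had an unadjusted p under 0.05 (2.53% higher and 3% lower), and the smallest adjusted p was 0.883. The interferon list had a median of 0.37 for JK136 minus Rhosin and 0.21 for JK136 minus JK139, and the p53 list 0.32 and 0.32. Beside medians of 0.20 and 0.28 against DMSO, the interferon and p53 lists had −0.12 and −0.10 with Rhosin and −0.0002 and 0.02 with JK139, all measured against the same DMSO arrays. Among the lists with lower medians, the mitotic list had −0.09 with JK136 and −0.10 with Rhosin, the replication list −0.06 with JK136 and −0.14 with Rhosin, and the ribosomal list −0.09 with JK136 and −0.14 with JK139.

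EGR1 had a mean below 0 with JK136 and above 0 with Rhosin and JK139, with its largest differences in AGS. It differed from DMSO by 1.67, 0.21 and 0.01 with Rhosin in AGS, MKN1 and SNU601, and by 0.53, 0.05 and −0.20 with JK139, where JK136 had −0.98, −0.57 and −0.18. JK136 lay below Rhosin by −1.21 ± 0.33 (SE, limma adjusted p = 0.417). DKK1 lay above Rhosin by 0.89 ± 0.28 (SE, limma adjusted p = 0.421) and above JK139 by 0.83 ± 0.28 (SE, limma adjusted p = 0.883). With Rhosin, DKK1 differed from DMSO by −0.9998, 0.19 and −0.03 in AGS, MKN1 and SNU601, where JK136 had 1.06, 0.12 and 0.64. In MKN1, JK136 thus lay below Rhosin. SREBF1 had means of −0.03 with Rhosin and −0.07 with JK139, and JK136 lay below them by −0.49 ± 0.12 and −0.45 ± 0.12 (SE, limma adjusted p = 0.373 and 0.883). SCD had −0.01 and 0.01, and IFITM2 −0.14 and −0.04. GDF15, in contrast, had a mean of 0.66 with Rhosin, AADAC of 0.53 and FBXO32 of 0.44, close to the JK136 values of the first and below those of the other two. CEACAM5 had 0.95, 1.37 and 1.004 with Rhosin in AGS, MKN1 and SNU601 and lay lower with JK136 by −1.37 ± 0.27 (SE, limma adjusted p = 0.257), and TIPARP, an ADP-ribosyltransferase, by −0.72 ± 0.12 (SE, limma adjusted p = 0.257). None of these differences passed the threshold over all genes.

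**Figure D5:**
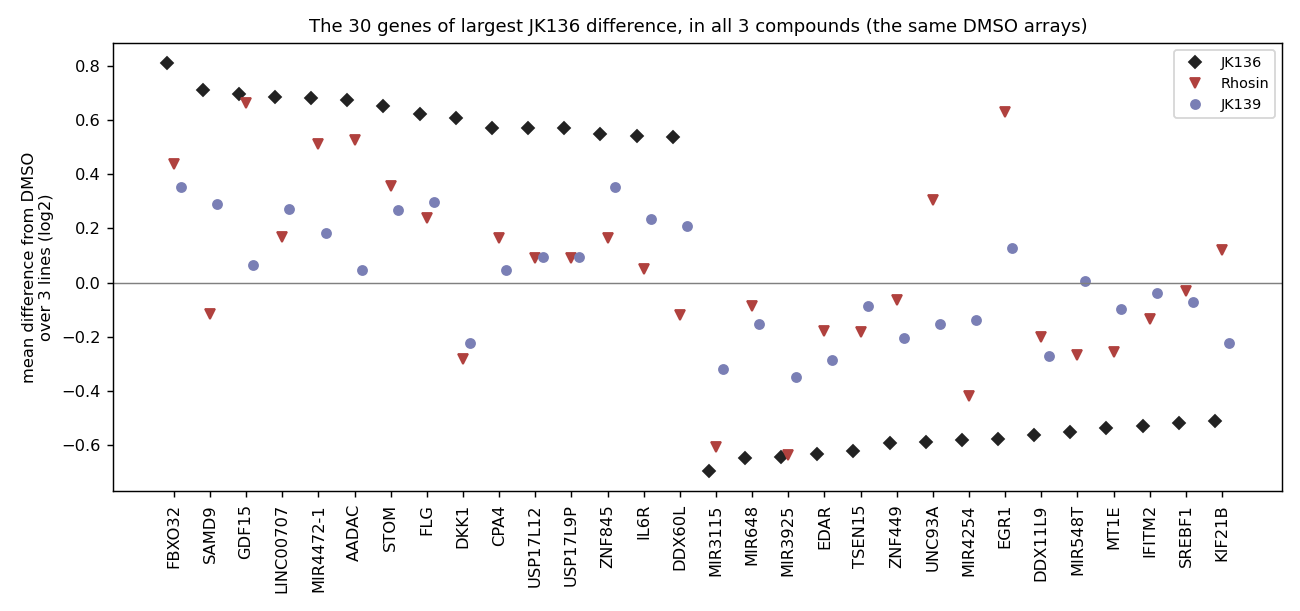
Mean difference from DMSO over the 3 lines (y axis, log2) with JK136, Rhosin and JK139 for the 15 highest and 15 lowest genes of JK136, all against the same 3 DMSO arrays. The genes were chosen for their JK136 values; EGR1 and UNC93A lie below 0 with JK136 and above 0 with Rhosin, at 0.63 and 0.31.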

How the data were processed

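The authors deposited 1 log2 signal per transcript cluster and array. Of tools, the submitters' processing notes list RMA (robust multi-array averaging, which background-corrects, quantile-normalizes and summarises probes) and Affymetrix Expression Console; the version of either is not given in the sources used here. On the 12 arrays 53617 clusters were listed. A single gene symbol was given for 16098 clusters (30.0%) by the platform annotation, and 37519 clusters have no name here. The cluster with the highest mean stood for each of 14884 symbols, and genes below the 40th percentile of these means (4.61) were left out. Arrays were assigned by their labels, and cell line pairs the arrays, since arrays of 1 line share that line.

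The model was fitted with limma 3.58.1 in R 4.3.3 on the 12 arrays with treatment and line as fixed terms (6 residual degrees of freedom), and an adjusted p under 0.05 was called. It was also tested on simulated data. Whether the cultures were independent is not stated. P-values measure the residual spread of these 12 arrays over lines and treatments. Lists are described by counts and medians, without a test. Named genes were the 15 highest and 15 lowest means with 1 sign, the 10 each way with the largest smallest difference of the 3 lines, the 8 largest each way in each line, up to 8 per list of the 36 gene lists, and RHOA, RHOB and RHOC. The summary of 1 list is not reported here. The members and lists were chosen with earlier results of these data known. Alternatives covered scaling, filter, cluster choice, block, variance prior, array weights, fold and leaving out arrays or lines.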

Additional observations from a re-analysis of the deposited data

Results flagged for a closer look

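Differences of at least 1.5-fold that pointed opposite ways in a pair of lines were found in 4 of the genes named within 1 line. Each line gives 1 pair of arrays, so the difference between lines was not tested, and the genes were picked for a large difference in 1 of the lines. CST4, a secreted cystatin, differed from DMSO by 1.37 in AGS and −0.64 in MKN1, which lie 2.01 apart on the log2 scale. TFF1, a trefoil peptide of gastric mucus, differed by 0.69 in SNU601 and −1.38 in AGS, 2.07 apart. STEAP4 differed by 0.68 in AGS and −1.27 in MKN1, 1.95 apart, but its AGS levels of 2.63 and 3.31 lay below 4.61. CRIP2, a LIM domain protein, differed by 0.66 in AGS and −1.05 in MKN1, 1.71 apart.

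Among the clusters without a gene name, which entered no comparison above, 12937 had a mean of at least 4.61. Of these, 6 lay at least 1.5-fold higher and 12 at least 1.5-fold lower with JK136 in each of the 3 lines. The identity of these clusters was not analysed here.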

How the results depend on the processing

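The threshold of limma was passed by 0 genes for JK136 minus DMSO under all alternatives run except without the filter, where 1 gene passed (MIR329-1, adjusted p 0.0218, mean level 4.33). For JK136 minus Rhosin, 1 unnamed cluster passed when every cluster was tested, 2 genes with a trended and robust prior (TIPARP and GDA), and between 0 and 3 genes when an array or line was left out (CLU, IGFL2 and SAMD9L without the MKN1 JK136 array, adjusted p 0.0416). For JK136 minus JK139, 0 genes passed under any. Genes with an unadjusted p under 0.05 numbered 361 higher of 14884 tested without the filter and 103 of 5954 with a 60th percentile filter. When every cluster was tested, 1320 of 53617 clusters lay higher and 1488 lower at that p. These counts come from other numbers of genes or clusters than the 8930 of the main fit. Without the replicate block of line, 4 of the 8930 genes lay higher and 15 lower at that p, since differences between lines then enter the error. The fit of the 6 arrays alone with the block moved no count by over 1.5 times. Leaving out arrays or lines gave between 125 and 214 higher and between 208 and 378 lower. Genes at least 1.5-fold higher in every line numbered 3 of 14884 without the filter, 0 of 5954 with the 60th percentile filter and 37 of 53617 clusters. Genes at least 1.5-fold lower numbered 1 of 14884 without the filter and 60 of 53617 clusters. At least 1.3-fold gave 9 higher and 10 lower, and at least 2-fold gave 0 higher. With a line left out, the rule asks for 2 lines, and between 1 and 12 lay higher (12 without MKN1) and between 3 and 5 lower.

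Of the 43 genes retested, 0 passed in any alternative (lowest adjusted p 0.176), and the sign of all but RHOB and RHOC was kept. RHOB lay above 0 without the AGS arrays (0.18) and without the AGS JK136 array (0.18), with a range of −0.28 to 0.18 over arrays left out and −0.27 to 0.18 over lines left out. RHOC lay at 0.025 with array weights, at 0.058 and 0.030 without the AGS or the MKN1 arrays, at 0.042 and 0.015 without the AGS JK136 or DMSO array, and at 0.025 without the MKN1 DMSO array, and its lowest value was −0.18 without the SNU601 arrays. Without a line, other list medians moved too: heat shock to 0.06 without AGS, mitosis to −0.15 and cholesterol synthesis to 0.24 without MKN1, fatty acid synthesis to −0.16 without AGS, −0.05 without MKN1 and −0.17 without SNU601, ribosomal proteins to −0.15 without MKN1, and immediate-early genes to 0.10 without AGS and 0.02 without MKN1. The causes were not tested. Levels under 4.61 limit the values of genes such as AADAC, STOM, LINC00707 and CRYBG1 in AGS and MTSS1 in AGS and SNU601. The same holds for HSPA4L, CPA4 and FLG in SNU601, ZNF544 in MKN1 and MIR4472-1 with DMSO. Having 1 array per line and treatment leaves no measure of the spread within a line.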

Other observations

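Of 15 genes of hypoxia and glycolysis, 6 lay higher in all 3 lines and 1 lower, with a median of 0.05. Of all genes tested, 10.6% lay higher in all 3 lines and 15.9% lower. TPI1, a glycolytic enzyme, differed by 0.46, 0.27 and 0.13 in AGS, MKN1 and SNU601, NDRG1, a hypoxia-induced protein, by 0.39, 0.40 and 0.16, and EGLN1, an oxygen-sensing hydroxylase, by 0.22, 0.21 and 0.13. VEGFA, the vascular growth factor, differed by −1.05 in AGS and by 0.28 and 0.19 in MKN1 and SNU601. None passed the limma test.

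HMOX1, which degrades haem and answers to oxidative stress, differed by 0.91, 0.41 and 0.07 in AGS, MKN1 and SNU601, while the 13 tested NRF2 targets had a median of −0.02, which became 0.006 after quantile normalization. SQSTM1, an autophagy receptor, lay higher in all 3 lines by 0.39, 0.14 and 0.28. BMP4, a secreted growth factor, differed by −0.27, −0.22 and −0.24 and CDX2, an intestinal transcription factor, by 0.15, 0.16 and 0.27, each with 1 sign in 3 of 3 lines. Of all genes tested, 26.6% had 1 sign in all 3 lines. In the lists of SQSTM1, BMP4 and CDX2, 12 of 19 lysosome and autophagy genes, 11 of 25 Wnt genes and 6 of 10 intestinal genes had a mean above 0. The share of all genes was 44%. MT1X differed by −0.36, −0.18 and −0.11, and 3 of 4 tested metallothioneins had a mean below 0, against 56% of all genes.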
